A study of Cavia porcellus with 72 samples.

Results

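The genes described here belong to families known for enzymes that write, erase or read histone marks and for proteins that move nucleosomes. They were taken by name from RNA-seq count tables of the guinea pig hippocampus, as every row whose symbol began with HDAC, SIRT, KDM, KMT, SETD, PRMT, CHD, KAT or BRD and a digit, or with SMARC, EHMT, EZH1, EZH2, INO80, GATAD2 or ASXL. The rule found 96 genes among the 11927 genes listed in any of the 3 tables, of which 95 were in every table and SIRT5 was in the F2 table alone. They comprised 10 histone deacetylases, 6 sirtuins, 13 lysine demethylases, 10 lysine methyltransferases of the KMT, EHMT and EZH names, 8 SET domain genes, 8 arginine methyltransferases, 7 lysine acetyltransferases, 7 bromodomain genes, 11 SWI/SNF and related genes, 8 CHD remodellers, 3 INO80 genes, 3 ASXL genes and 2 GATAD2 genes. KDM5C, KDM6B, EHMT1, SETD1A and KAT2A were not analysed here. All 96 passed the filter on low counts.

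Acetylation of histone tails by lysine acetyltransferases accompanies open chromatin, and histone deacetylases and sirtuins remove it. Methyltransferases and demethylases set lysine and arginine methylation, which can mark active promoters and enhancers or silent genes according to the residue, while SWI/SNF, ISWI, CHD and INO80 machines use ATP to slide, evict or exchange nucleosomes. In the hippocampus these proteins are best known for their part in activity-dependent transcription and memory, and mutations in many of them cause human neurodevelopmental disorders.

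The animals were juvenile female guinea pigs killed on postnatal day 40 in 3 generations. In the sGC groups, the founding (F0) Dunkin-Hartley dam had received betamethasone, a synthetic glucocorticoid (sGC), late in pregnancy, and in the control groups she had received saline. F1 females were exposed in the womb, whereas F2 and F3 females descended from the exposed pregnancy through sons mated with untreated females, so that a paternal line only was sampled. Each female had a different mother. There were 6 control and 5 sGC libraries in F1, 6 and 6 in F2, and 6 and 7 in F3. The study describes each as made from the right hippocampus of 1 animal, so that all values are those of mixed tissue.

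Levels are given as counts per 1e+06 reads (CPM) after TMM scaling within a generation, from 13507449 to 19767033 reads counted per library. Changes are log2 fold changes of sGC against control with their SE, and a gene was taken to rise or fall where its p-value from edgeR's quasi-likelihood test, adjusted over all genes tested by the Benjamini-Hochberg method, was below 0.05. A change in bulk RNA can come from fewer or more cells of a type or from less or more RNA per cell, and these cannot be told apart.

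Some libraries stood apart. The counts of F3 sGC replicate 5 lay closer to the mean of F3 sGC replicates 1, 2, 3, 4 and 7 than counting error allows. The chi-square divided by its degrees of freedom averaged 0.347 over 9730 genes. Each of those 5 libraries against the mean of the other 4 gave 7.37 to 9.62. Against the mean of all other libraries of its group replicate 5 gave 1.89, and the other 35 libraries gave 4.51 to 53.0. That library was therefore not counted as a further animal, which left 6 sGC animals in F3, and results that involve F3 are also given with it. The labels give each of these libraries a number after the letters SGM, without saying what it stands for. Those with the numbers 32 to 36 are all sGC (F1 replicates 4 and 5, F2 replicate 6, F3 replicates 5 and 6). No control has such a number, so that for these libraries number and exposure cannot be told apart. Each generation also holds sGC libraries with lower numbers, and counts are given without libraries 32 to 36 as well. Of cell type markers, 6 of 7 for hippocampal excitatory neurons and 7 of 7 for astrocytes were measured, while MBP, MOBP, C1QA and TBR1 were not analysed here. The summed astrocyte markers ranged from 8023 to 10533 CPM in F1 control and from 9180 to 15069 CPM in F1 sGC animals, and from 8861 to 9858 CPM in F3 control and from 10030 to 11564 CPM in F3 sGC animals. Their part in the changes below was not tested.

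In F1, 4 of 95 members rose and 0 fell, against 2.08% of all 11377 genes tested that passed, 1.63% higher and 0.457% lower. The 4 were KAT6A, KMT2A, KMT2C and ASXL2. The likelihood ratio test and DESeq2 each called 12 members, against 5.26% and 5.78% of all genes.

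KAT6A, a MYST family acetyltransferase of histone H3 also known as MOZ, changed most clearly. Its level was 46.2, 44.0, 42.6, 46.1 and 45.6 CPM in the 5 F1 sGC animals, against a lowest value of 31.6, a median of 34.1 and a highest value of 38.8 CPM in the 6 controls. Every sGC animal was above every control. The log2 fold change was 0.37 ± 0.05 (SE; edgeR adjusted p = 0.00522). Without libraries 32 to 36 it was 0.35 (edgeR adjusted p = 0.0254), and it passed in each of the 11 fits that left out 1 library.

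KMT2A and KMT2C encode large histone H3 lysine methyltransferases, KMT2A known from promoters of developmental genes and KMT2C from enhancers. KMT2A stood at 89.3, 83.9, 87.8, 96.8 and 109 CPM in the sGC animals and between 73.6 and 84.1 CPM (median 77.2) in the controls. A single sGC animal, replicate 2, lay within the control range, and the log2 fold change was 0.27 ± 0.06 (SE; edgeR adjusted p = 0.04205). KMT2C was measured at 111.3, 105.0, 128.03, 130.7 and 144.02 CPM in the sGC animals, against 92.02 to 110.5 CPM (median 99.9) in the controls. Here too replicate 2 alone was not above every control, and the log2 fold change was 0.32 ± 0.07 (SE; edgeR adjusted p = 0.04705). For both genes the highest values were those of replicates 4 and 5, the 2 libraries of F1 numbered 35 and 32. Without them the log2 fold change was 0.17 for KMT2A (edgeR adjusted p = 0.0892) and 0.21 for KMT2C (edgeR adjusted p = 0.134).

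ASXL2, a partner of the BAP1 enzyme that removes ubiquitin from histone H2A, was present at 35.7, 38.9, 35.8, 34.6 and 40.0 CPM in sGC animals and at 28.4 to 34.9 CPM (median 30.99) in controls. Of the sGC animals, replicate 4 alone lay within the control range. Its log2 fold change was 0.25 ± 0.06 (SE; edgeR adjusted p = 0.0494), and 0.24 without libraries 32 to 36 (edgeR adjusted p = 0.0868). In that smaller set 1 member, KAT6A, passed, against 0.845% of all genes. Of fits that left out 1 library, 4 of 11 kept KMT2A, 3 kept KMT2C and 3 kept ASXL2. The count of members fell to 1, KAT6A, without control replicate 1, 2, 4 or 5 or without sGC replicate 3 or 5. The share of all genes called in each such fit is not reported here.

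**Figure D1:**
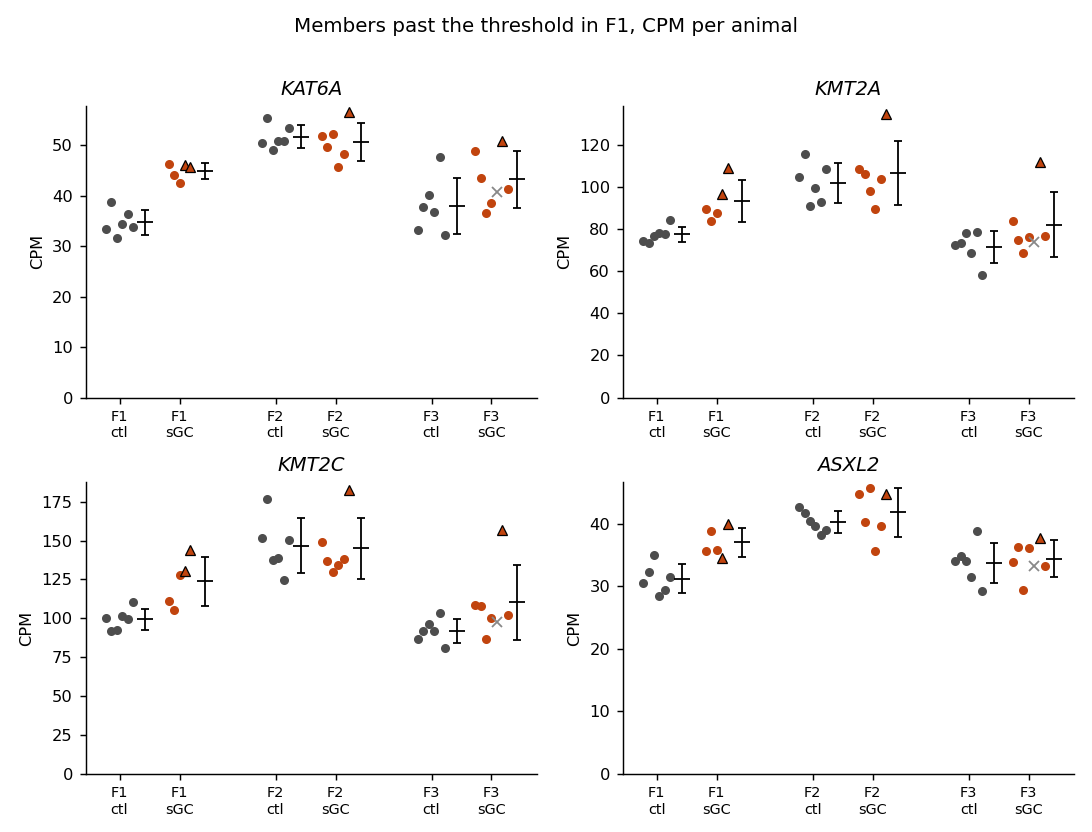
CPM per animal (linear axis from 0) of KAT6A, KMT2A, KMT2C and ASXL2 in control (grey) and sGC (orange) animals of F1, F2 and F3, with the mean and SD of each group as a bar to its right. Triangles are libraries 32 to 35 and the cross is F3 sGC replicate 5, which is in no mean. In F1 the KAT6A groups do not overlap, and for KMT2A and KMT2C the triangles are the highest points of each generation.

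At an unadjusted p below 0.05 there were 24 members, 20 higher and 4 lower, against 19.6% of all genes. The median log2 fold change of the 95 members was 0.02, against -0.01 for all genes tested. Of 8 CHD remodellers, 7 were higher and 5 had an unadjusted p below 0.05, with a median of 0.11. CHD6 had a log2 fold change of 0.22 ± 0.05 (SE; edgeR adjusted p = 0.0606) and CHD1, a remodeller that binds methylated histone H3, one of 0.24 ± 0.06 (SE; edgeR adjusted p = 0.0632). Neither passed.

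SET domain genes had a median of 0.12 over 8 members. SETD5, mutated in intellectual disability, was measured between 120.9 and 129.7 CPM in sGC animals and between 112 and 120 CPM in controls, groups that did not overlap, with a log2 fold change of 0.13 ± 0.03 (SE; edgeR adjusted p = 0.0604). SETD7, a lysine methyltransferase of histone H3 and of other proteins, lay between 548.6 and 610 CPM in sGC animals and between 484 and 534 CPM in controls. These groups did not overlap either, and the log2 fold change was 0.16 ± 0.04 (SE; edgeR adjusted p = 0.0681).

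The 3 INO80 genes went different ways. INO80, the ATPase of the complex, had values of 20.6 to 21.3 CPM in sGC animals and 18.2 to 20.04 CPM in controls, with a log2 fold change of 0.13 ± 0.05 (SE; edgeR adjusted p = 0.136). INO80D, an accessory subunit, had a log2 fold change of 0.36 ± 0.10 (SE; edgeR adjusted p = 0.06895), and INO80E, another, one of -0.15 ± 0.05 (SE; edgeR adjusted p = 0.119).

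Lower values in F1 were led by PRMT5, the main enzyme of symmetric arginine dimethylation. It stood at 46.9, 45.7, 49.3, 45.1 and 48.2 CPM in sGC animals and between 50.1 and 53.7 CPM (median 52.3) in controls. All sGC animals were below all controls, and the log2 fold change was -0.15 ± 0.04 (SE; edgeR adjusted p = 0.06895). SMARCD2, a SWI/SNF subunit, had groups that did not overlap and a log2 fold change of -0.14 ± 0.05 (SE; edgeR adjusted p = 0.1185). SMARCA4, the BRG1 ATPase, followed at -0.12 ± 0.05 (SE; edgeR adjusted p = 0.188) and HDAC2, a class I deacetylase known to restrain memory genes, at -0.11 ± 0.05 (SE; edgeR adjusted p = 0.260). In all, the F1 groups of 7 of 95 members did not overlap (CHD6, INO80, KAT6A, SETD5 and SETD7 higher in sGC animals, PRMT5 and SMARCD2 lower), against 4.41% of all genes.

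**Figure D2:**
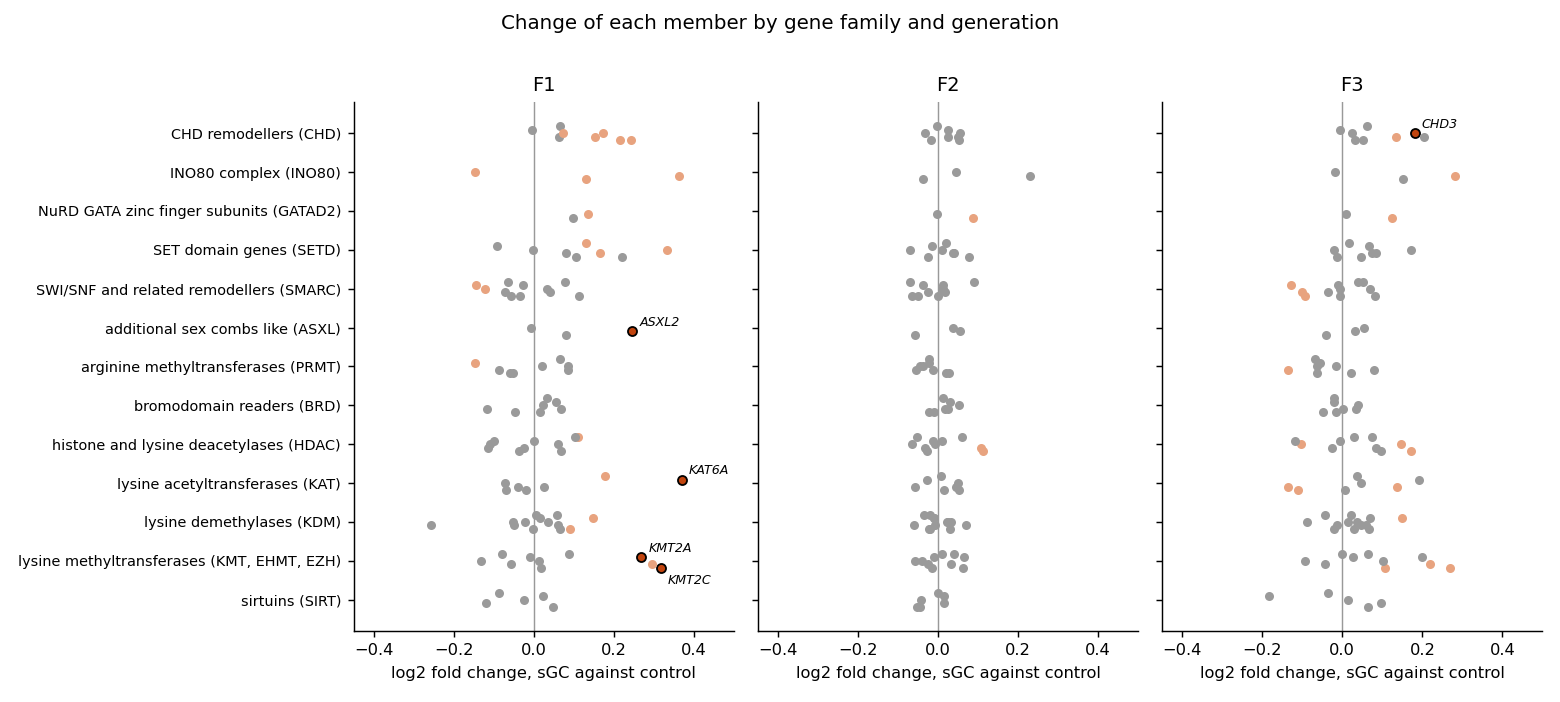
Log2 fold change of sGC against control of each member, in rows by gene family and in panels by generation. Filled orange points with a black edge passed the threshold (KAT6A, KMT2A, KMT2C and ASXL2 in F1, CHD3 in F3), pale orange points had an unadjusted p below 0.05, and grey points did not. The F2 values span the narrowest range, from -0.07 to 0.23.

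Chromatin genes outside the name rule were read from 8 lists of their partners, of which 117 genes were tested in F1. Of these 7 rose and 1 fell, against 2.08% of all genes. Without libraries 32 to 36 only ATRX passed, against 0.845% of all genes. The risers were BAZ2B and RSF1, partners of ISWI remodellers, the remodeller ATRX, the polycomb genes PHC3 and YAF2, and the histone methyltransferases ASH1L and WHSC1L1. BAZ2B had a log2 fold change of 0.30 ± 0.05 (SE; edgeR adjusted p = 0.0141), with 20.5 to 21.8 CPM in sGC animals and 16.5 to 18.9 CPM in controls. PHC3 followed at 0.29 ± 0.05 (SE; edgeR adjusted p = 0.0179) and ASH1L at 0.26 ± 0.05 (SE; edgeR adjusted p = 0.0191). The values of ATRX, YAF2, RSF1 and WHSC1L1 ran from 0.19 to 0.25. DPF1, a subunit of the neuronal BAF complex, fell, from 36.7 to 42.1 CPM in controls to 29.5 to 35.7 CPM in sGC animals, with a log2 fold change of -0.24 ± 0.05 (SE; edgeR adjusted p = 0.0411).

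In F2, 0 of 96 members passed, and 0% of the 11414 genes tested did (edgeR). At an unadjusted p below 0.05 there were 3 members, against 6.64% of all genes, and DESeq2 and the likelihood ratio test called 0 members as well. All 3 were higher in sGC animals. HDAC5, a class IIa deacetylase that shuttles out of the nucleus with neuronal activity, was measured between 142.5 and 165.7 CPM (median 157) in sGC animals and between 139 and 152 CPM (median 145.8) in controls, with a log2 fold change of 0.11 ± 0.04 (SE; edgeR adjusted p = 0.678). Of the 6 sGC animals, 5 were above every control.

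GATAD2A, a scaffold of the NuRD corepressor, had a log2 fold change of 0.09 ± 0.04 (SE; edgeR adjusted p = 0.720) and HDAC11, the class IV deacetylase, one of 0.11 ± 0.05 (SE; edgeR adjusted p = 0.734). SMARCD3 and INO80D came next, at 0.09 ± 0.04 and 0.23 ± 0.12 (SE). The lower end was held by SMARCAD1 at -0.07 ± 0.04, followed by ASXL1, SMARCA5, SMARCA1 and SIRT3 between -0.06 and -0.04. Members higher and lower in sGC animals were equal in number, 48 and 48, and the groups of 0 members were free of overlap, against 0.403% of all genes. Of 116 partner genes, 0 passed, and 7 had an unadjusted p below 0.05.

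In F3, 1 of 95 members passed, against 2.54% of all 11351 genes, 1.02% higher and 1.52% lower. CHD3, an ATPase of the NuRD complex that acts in cortical neurons, rose. Its level was 613 CPM at the lowest, 655 at the median and 709 at the highest in the 6 sGC animals, and 539, 587 and 606 CPM in the 6 controls. The groups did not overlap. The log2 fold change was 0.18 ± 0.04 (SE; edgeR adjusted p = 0.0298), and 0.18 with F3 sGC replicate 5 (edgeR adjusted p = 0.0111). It was also 0.18 without libraries 32 to 36 (edgeR adjusted p = 0.0345), where again 1 member passed, against 2.79% of all genes. Of 12 fits without 1 library, 4 kept the call, and the highest edgeR adjusted p, 0.0706, came without control replicate 4. The call was lost without control replicate 1, 2, 4 or 6 or without sGC replicate 1, 2, 3 or 7. The likelihood ratio test called 2 members in F3, against 4.08% of all genes, and DESeq2 3, against 6.29%.

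HDAC5 and SMARCA5 came next and did not pass. HDAC5 lay between 164 and 193 CPM (median 183) in sGC animals and between 142.97 and 169 CPM (median 164) in controls, and 5 of 6 sGC animals were above every control. Its log2 fold change was 0.17 ± 0.05 (SE; edgeR adjusted p = 0.0765). SMARCA5, the ISWI ATPase also called SNF2H, lay between 119 and 132 CPM (median 126) in sGC animals and between 134 and 142 CPM (median 137.2) in controls. Every sGC animal was below every control, with a log2 fold change of -0.13 ± 0.04 (SE; edgeR adjusted p = 0.0749). With F3 sGC replicate 5, which was not counted as a further animal here, the edgeR adjusted p was 0.0379 for HDAC5 and 0.0340 for SMARCA5. In that fit 3 members passed, against 5.04% of all genes.

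**Figure D3:**
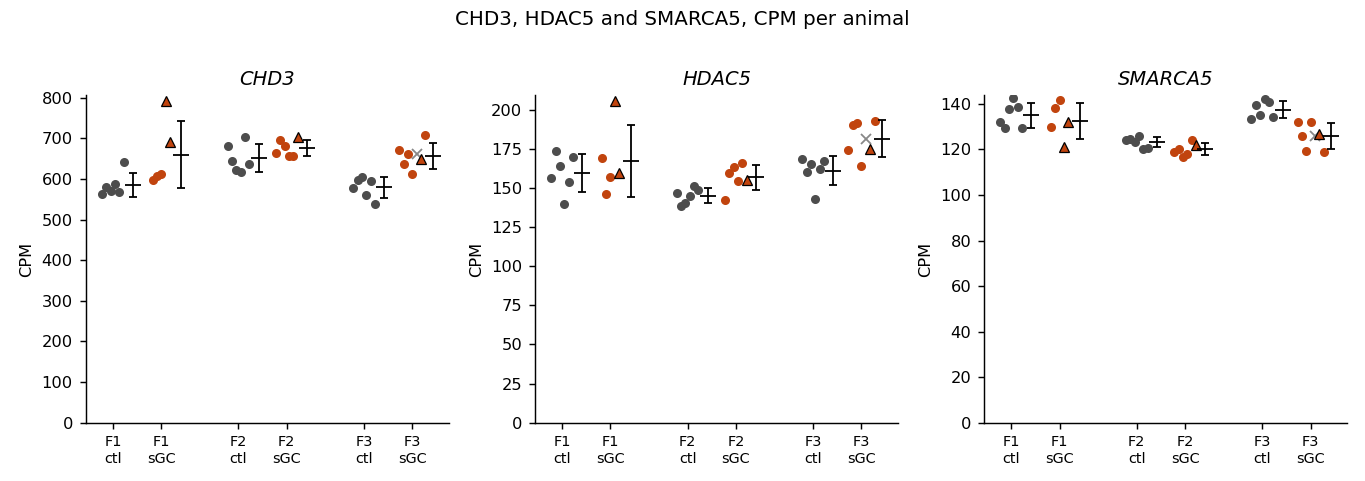
CPM per animal (linear axis from 0) of CHD3, HDAC5 and SMARCA5 in control (grey) and sGC (orange) animals of each generation, with group mean and SD as bars. Triangles are libraries 32 to 35 and the cross is F3 sGC replicate 5. In F3 the CHD3 and SMARCA5 groups are apart, and in F1 the highest CHD3 value, 793 CPM, is a triangle.

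The F3 groups of 2 of 95 members, CHD3 and SMARCA5, did not overlap, against 2.72% of all genes. At an unadjusted p below 0.05 stood 18 members, 11 higher and 7 lower, against 17.8% of all genes. The higher ones included CHD1L (0.14 ± 0.05, SE), HDAC7 (0.15 ± 0.06) and GATAD2A (0.13 ± 0.05). Among the lower ones were KAT7, the acetyltransferase HBO1 (-0.11 ± 0.04), HDAC2 (-0.10 ± 0.04), the core SWI/SNF subunit SMARCB1 (-0.10 ± 0.04) and the brain arginine methyltransferase PRMT8 (-0.14 ± 0.06). None of these passed, with edgeR adjusted p-values between 0.176 and 0.2505. ACTL6B, the actin-related subunit of the neuronal BAF complex, was the 1 partner gene of 117 that passed, and 0 passed without libraries 32 to 36 (317 of 11365 genes did). It fell, from 61.2 to 68.2 CPM in controls to 51.3 to 61.8 CPM in sGC animals (log2 fold change -0.19 ± 0.05, SE; edgeR adjusted p = 0.0377).

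The mean of the 3 within-generation effects gave the most calls. Of 95 members 9 rose and 2 fell, so that 11 passed, against 7.3% of all 11391 genes, 3.99% higher and 3.31% lower. The risers were CHD3, SETD7, INO80D, KAT6A, GATAD2A, HDAC5, KMT2A, KMT2C and KMT2D, and PRMT5 and SMARCA5 fell. In 9 of the 11 the sign was the same in F1, F2 and F3. KAT6A and KMT2C were the exceptions, with F2 values of -0.03 ± 0.05 and -0.02 ± 0.08 (SE). That agreement rests in part on the high-numbered sGC libraries. Without them the F1 values of HDAC5 and SMARCA5 took the other sign and that of GATAD2A vanished, as given below. In F2, sGC replicate 6 (library 33) alone was above every control for KMT2A and KMT2D. For both genes the mean CPM of the other F2 sGC animals lay below the control mean.

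CHD3 was the clearest. All 17 sGC animals exceeded the mean of the controls of their own generation, with a mean log2 fold change of 0.14 ± 0.03 (SE; edgeR adjusted p = 0.00852). Such counts, here and below, come from the same animals that gave the calls and are no separate test. By generation it was 0.17 ± 0.07 in F1, 0.06 ± 0.03 in F2 and 0.18 ± 0.04 in F3 (SE). In F1 the values were 597, 607, 613, 793 and 690 CPM in sGC animals, the last 2 from libraries 35 and 32, against 564 to 641 CPM in controls, and the F1 effect without these 2 libraries was 0.05 ± 0.05 (SE).

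SETD7 had a mean effect of 0.10 ± 0.02 (SE; edgeR adjusted p = 0.0128), and 14 of 17 sGC animals were above their control mean. INO80D, at a mean effect of 0.29 ± 0.07 (SE; edgeR adjusted p = 0.0131), was above it in 15 of 17. Its levels were low, between 5.59 and 14.4 CPM in all animals. DESeq2 gave INO80D no adjusted p in the mean effect, while the likelihood ratio test kept it (adjusted p = 0.00379). KAT6A reached 0.18 ± 0.04 (SE; edgeR adjusted p = 0.0135), with 37.9 ± 5.59 CPM in F3 controls and 43.3 ± 5.67 CPM in F3 sGC animals (SD, n = 6 each).

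GATAD2A and HDAC5, both components of deacetylase complexes, were higher in sGC animals in every generation. GATAD2A gave 0.10 ± 0.06, 0.09 ± 0.04 and 0.13 ± 0.05 (SE) in F1, F2 and F3, with a mean of 0.10 ± 0.03 (SE; edgeR adjusted p = 0.0335), and 16 of 17 sGC animals were above their control mean. Without libraries 32 to 36 its F1 value was 0.00 ± 0.05 (SE). HDAC5 gave 0.07 ± 0.08, 0.11 ± 0.04 and 0.17 ± 0.05 (SE), with a mean of 0.12 ± 0.03 (SE; edgeR adjusted p = 0.0368), and 13 of 17 animals were above. In F1 the HDAC5 effect rested on sGC replicate 4, at 206 CPM against 145.96 to 169 CPM in the other 4, and was -0.02 ± 0.07 (SE) without libraries 32 to 36.

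The 3 methyltransferases KMT2A, KMT2C and KMT2D rose in the mean effect, by log2 values of 0.18 ± 0.05, 0.19 ± 0.06 and 0.18 ± 0.06 (SE), with edgeR adjusted p-values of 0.0397, 0.04235 and 0.0434. KMT2D, like KMT2C an enhancer methyltransferase, had F1 values of 160, 151, 186, 205 and 216 CPM in sGC animals and 136.7 to 170.3 CPM in controls. In each generation the highest value of all 3 genes came from a library numbered 32, 33 or 34. The same held for INO80D in each generation and for KAT6A in F2 and F3. F2 sGC replicate 6 (library 33) held 135 CPM of KMT2A where the other F2 animals reached 116 CPM, and F3 sGC replicate 6 (library 34) held 112 CPM where the other F3 animals reached 83.7 CPM. Library 34 had the highest value of 25 of 95 members in F3, or 26.3%, and of 14.9% of all genes.

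PRMT5 fell by 0.08 ± 0.02 in the mean effect on the log2 scale (SE; edgeR adjusted p = 0.0220), with 13 of 17 sGC animals below their control mean. In F2, 3 of 6 sGC animals were below it and 3 above, and the PRMT5 effect was 0.12 higher than in F1. SMARCA5 fell by 0.06 ± 0.02 (SE; edgeR adjusted p = 0.04235), with 14 of 17 below, although its F1 value was 0.02 ± 0.04 (SE) without libraries 32 to 36. HDAC2, at -0.07 ± 0.02 (SE; edgeR adjusted p = 0.0531), did not pass, nor did SMARCB1 (-0.05 ± 0.02) or HDAC3 (-0.08 ± 0.03).

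Without libraries 32 to 36, 0 of 95 members passed in the mean effect, against 0.473% of all genes. The 11 values then kept their signs, at 0.09 for CHD3 (edgeR adjusted p = 0.0612), 0.09 for SETD7, 0.19 for INO80D, 0.14 for KAT6A and 0.08, 0.09 and 0.07 for KMT2A, KMT2C and KMT2D. With F3 sGC replicate 5 counted, 14 members passed, against 8.53% of all genes, all 11 among them. Leaving out F1 sGC replicate 4 gave the lowest count of any single library, 4 members (CHD3, INO80D, KAT6A and SETD7), which passed in every one of the 35 such fits. The others passed in fewer, PRMT5 in 34, GATAD2A in 31, HDAC5 in 26, KMT2A in 21, KMT2C in 20, KMT2D in 16 and SMARCA5 in 10. The shares of all genes called in these 35 fits are not reported here.

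**Figure D4:**
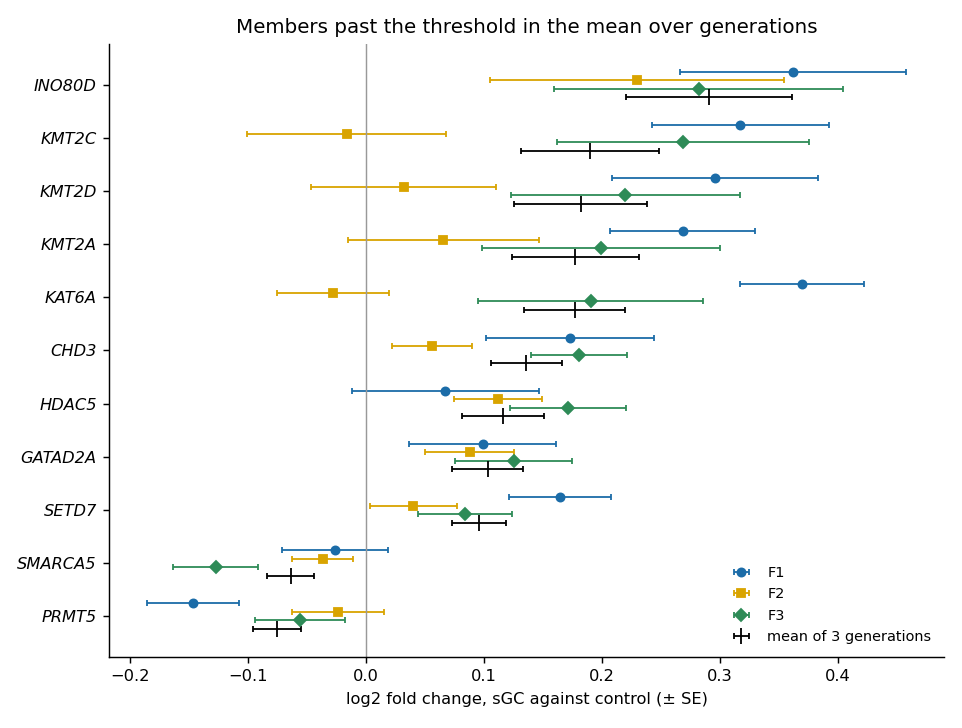
Log2 fold change of sGC against control with its SE (horizontal bars) for the 11 members that passed in the mean over generations, in F1 (circles), F2 (squares), F3 (diamonds) and the mean (black ticks). PRMT5 and SMARCA5 lie below 0 in every generation, and the F2 values of KAT6A, KMT2C and PRMT5 lie beside 0.

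Among partner genes 10 of 115 rose and 2 fell in the mean effect, against 7.3% of all genes, and 0 of 115 passed without libraries 32 to 36, against 0.473%. Among them were the histone chaperones HIRA (0.11 ± 0.02, SE) and CHAF1A (0.14 ± 0.04), the corepressor gene CDK2AP1 (0.13 ± 0.03), the BAF subunits DPF3 (0.21 ± 0.05) and ACTL6B (-0.14 ± 0.04), the TIP60 complex ATPase EP400 (0.11 ± 0.03), the polycomb genes RING1 (-0.12 ± 0.03) and YAF2 (0.08 ± 0.03), and ASH1L (0.12 ± 0.04). Of the astrocyte markers, all 7 were higher and 4 of 7 passed (AQP4, SLC1A2, ALDH1L1 and GFAP), with a median of 0.18 on the log2 scale. Of 6 measured markers of excitatory neurons, 2 were higher and 4 lower, with a median of -0.02 on the log2 scale, and 1, CAMK2A, passed. Of the 5 interneuron markers none passed in the mean effect, while GAD1 and GAD2 fell by 0.23 and 0.19 on the log2 scale in F3. LUM and DCN, genes of meningeal fibroblasts, fell by 0.50 and 1.00 on the log2 scale in F1. The part of these cell types in the members' values was not tested.

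Whether the sGC effect of a member differed among generations was tested over all 35 libraries. No member passed, and 0% of the 11391 genes did (edgeR), while 10 members had an unadjusted p below 0.05, against 14.3% of all genes. DESeq2 and the likelihood ratio test also called 0 members. KAT6A had the smallest unadjusted p, 0.00245 (edgeR adjusted p = 0.153), with an effect 0.40 lower in F2 than in F1 and 0.18 lower in F3 than in F1. Calls made in 1 generation alone are therefore not shown to be particular to it.

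The controls allowed the members' levels to be compared between generations without any exposure. Over 18 control libraries scaled together, 62 of 95 members differed, against 44.8% of all 11311 genes. In 38 of the 62 the F2 mean was the highest of the 3 and in 24 the lowest. Between F1 and F3 controls alone, 0 members and 0 of 11238 genes passed (edgeR), with 4 members and 847 genes at an unadjusted p below 0.05. The median absolute log2 difference from F1 over the 62 was 0.22 in F2 and 0.04 in F3.

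EZH1, a polycomb histone methyltransferase, showed the widest gap. It was at 212 ± 10.02 CPM in F1, 72.9 ± 3.01 CPM in F2 and 205 ± 13.5 CPM in F3 controls (SD, n = 6 each), with edgeR adjusted p = 5.91e-19. Its paralog EZH2 was at 2.27 ± 0.37, 2.46 ± 0.42 and 2.08 ± 0.22 CPM (SD, n = 6 each) and did not pass. CHD5, the neuronal NuRD remodeller, followed the same order as EZH1, with 736 ± 22.02, 342 ± 23.9 and 733 ± 35.003 CPM (SD, n = 6 each; edgeR adjusted p = 1.35e-16).

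BRD3, a reader of acetylated lysines, was at 110 ± 4.43, 67.7 ± 3.17 and 113 ± 3.15 CPM (SD, n = 6 each; edgeR adjusted p = 1.08e-14). PRMT8 was low in F2 too, at 42.1 ± 1.70, 24.996 ± 2.27 and 43.5 ± 2.24 CPM (SD, n = 6 each; edgeR adjusted p = 7.34e-12). Other members ran the other way. HDAC3, a class I deacetylase, was at 20.9 ± 0.92, 39.4 ± 1.88 and 20.5 ± 1.42 CPM (SD, n = 6 each; edgeR adjusted p = 1.52e-14).

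HDAC4 had 59.5 ± 2.71, 95.8 ± 4.05 and 58.0 ± 6.32 CPM (SD, n = 6 each; edgeR adjusted p = 2.93e-11). SMARCD2 and SETD6, a methyltransferase of the NF-kB subunit RelA, were high in F2 as well, with log2 differences from F1 of 0.67 (edgeR adjusted p = 1.59e-14) and 0.88 (edgeR adjusted p = 1.54e-09). KMT2C and KDM5A, a demethylase of histone H3, differed by 0.51 (edgeR adjusted p = 6.78e-08) and 0.43 (edgeR adjusted p = 1.19e-07) in the same direction. All 8 CHD genes were among the 62, as were 9 of 11 SMARC genes, 9 of 13 demethylases, 6 of 10 histone deacetylases, 2 of 5 sirtuins and 3 of 8 SET domain genes.

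The sGC animals and the controls already tested were then set side by side, which is no separate test of those levels. For 10 of 95 members all 12 F2 libraries lay outside the range of all 23 F1 and F3 libraries, against 9.46% of all genes. HDAC3, HDAC4, SETD6 and SMARCD2 were above it, and BRD3, CHD5, EZH1, KDM2B, PRMT2 and PRMT8 below. For EZH1 the F2 libraries ran from 60.3 to 80.4 CPM and the others from 176 to 227 CPM. Each generation was deposited as its own table, and generation and the making of the libraries and tables cannot be told apart in these levels.

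**Figure D5:**
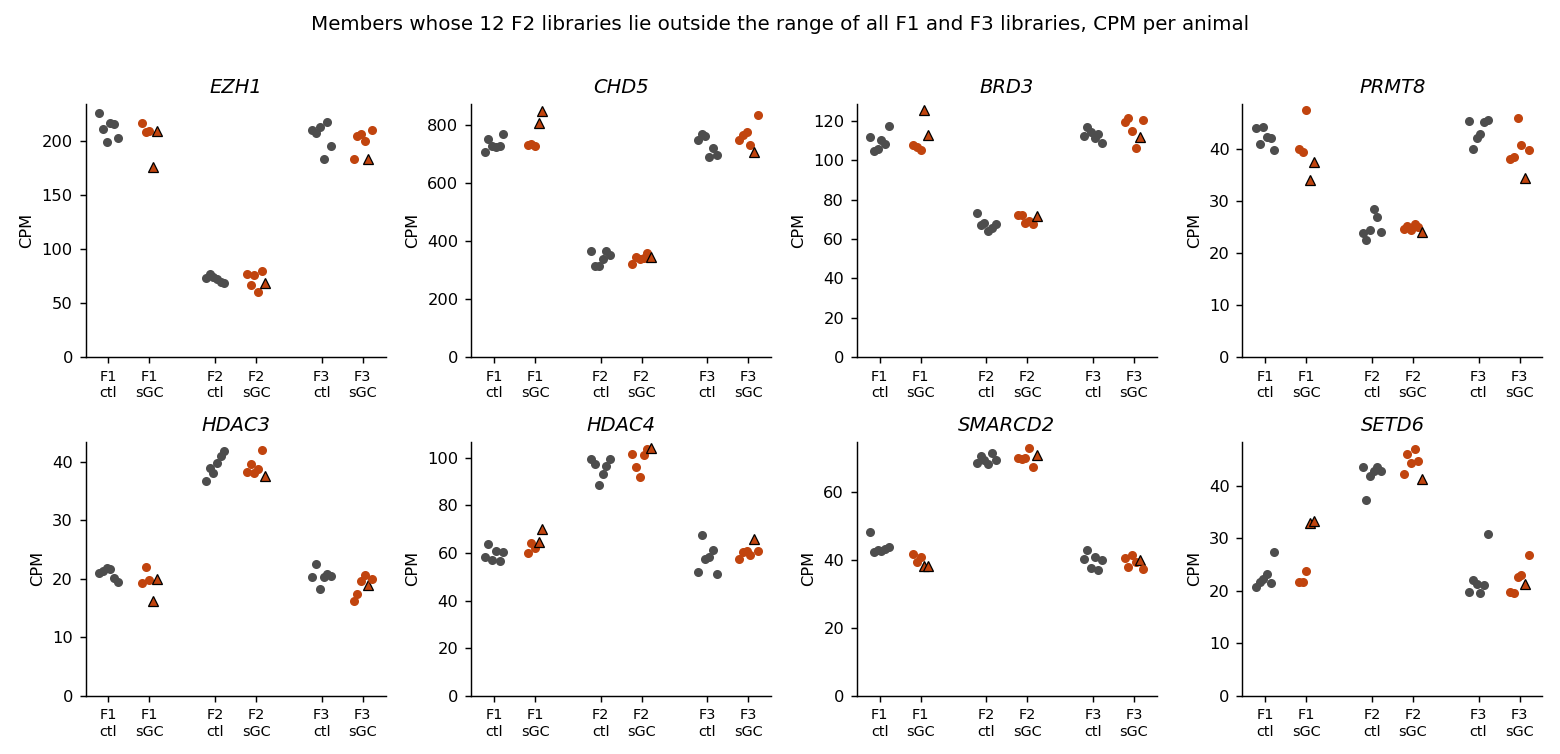
CPM per animal, all libraries scaled together (linear axis from 0), of 8 of the 10 members whose F2 libraries lie outside the range of every F1 and F3 library. EZH1, CHD5, BRD3 and PRMT8 are low and HDAC3, HDAC4, SMARCD2 and SETD6 are high in F2, in control (grey) and sGC (orange) animals alike. Triangles are libraries 32 to 35, and F3 sGC replicate 5 is not drawn.

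Among the members known for defined roles, many did not pass in any comparison of sGC with control. The class I deacetylases HDAC1 and HDAC3 had log2 fold changes between -0.12 and 0.10 over the 3 generations, HDAC4 between 0.06 and 0.11, HDAC9 between -0.05 and 0.10 and HDAC11 between -0.11 and 0.11. SIRT1, the nuclear NAD-dependent deacetylase, was at 18.7 ± 0.72 CPM in F1 controls (SD, n = 6) and 19.3 ± 0.42 CPM in F1 sGC animals (SD, n = 5), with values from -0.05 to 0.06. SIRT2, abundant in myelinating cells, ran from -0.12 to 0.10.

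Of 13 demethylases 0 passed in any of these comparisons. KDM1A, the flavin-dependent demethylase LSD1, had values of -0.02 ± 0.03 in both F2 and F3 and a mean effect of -0.02 ± 0.02 (SE). KDM6A, an X-linked demethylase that opposes polycomb, ran from 0.03 to 0.06. Of the demethylases, KDM5A alone was higher at an unadjusted p below 0.05 in both F1 and F3, at 0.15 ± 0.05 and 0.15 ± 0.07 (SE).

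The methyltransferases EZH1 and EHMT2 (also called G9a) had values from -0.06 to -0.02 and from 0.02 to 0.11, SETD2, a histone methyltransferase of transcribed gene bodies, from 0.04 to 0.08, and PRMT1, the main arginine methyltransferase of cells, from -0.06 to 0.02. EZH2 had values from -0.13 to -0.04, with SEs of 0.15 to 0.17. Among acetyltransferases KAT5 (TIP60) ran from -0.07 to 0.05 and KAT2B (PCAF) from -0.06 to 0.14.

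Among remodellers, SMARCA2 (BRM) ran from -0.04 to 0.04, CHD4 from -0.01 to 0.02, CHD7 from 0.03 to 0.21 and CHD8 from -0.03 to 0.07. CHD5 had 0.06 ± 0.05 in F1 and 0.06 ± 0.04 in F3 (SE), and GATAD2B 0.14 ± 0.04 in F1 and 0.01 ± 0.06 in F3 (SE). CHD3 and CHD4 are alternative ATPases of NuRD, and the CHD4 mean effect was 0.00 ± 0.02 (SE), where that of CHD3 was 0.14 ± 0.03 (SE). Their difference was not tested. The acetyl-lysine reader BRD2 had values of 0.07 ± 0.05 in F1 and 0.02 ± 0.03 in F2 (SE), and none of the 7 bromodomain genes had an unadjusted p below 0.05 in any generation. ASXL1 ran from -0.06 to 0.08 and ASXL3 from -0.01 to 0.05.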

How the data were processed

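Hippocampal mRNA of female guinea pigs was sequenced in 36 poly(A) libraries that carry no strand and aligned with TopHat2 per the submitters' processing notes. The authors deposited 1 table per generation, which holds raw whole-number counts of reads for each gene. Their own columns of fold change, average expression, test statistic, p-value and FDR were not used, nor were the bisulfite tables, which hold only the authors' comparisons. The build and counter behind the counts are not given in the sources used here.

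Groups came from the sample labels. Counts were analysed in R 4.3.3 with edgeR 4.0.16 (filterByExpr, TMM, quasi-likelihood test, Benjamini-Hochberg adjustment over all genes, threshold 0.05). The study's methods name edgeR's likelihood ratio test, which was an alternative beside DESeq2 1.42.0, DESeq2 size factors, no filter, a replicate block and leaving out libraries. Joint fits used genes present in all 3 tables. F3 sGC replicate 5 was left out of the fits after its counts were seen, a change from the fixed design. The members, gene lists and tests were chosen with earlier results of these data known. Named genes were those that passed, the 5 higher and 5 lower members with the smallest p per comparison, at most 10 partner genes, and members with known roles, a few of which are not reported here. Columns matching no sample numbered 0. Fits were tested on simulated data. Library totals of 13507449 to 19767033 reads leave members near 2 CPM with wide errors. Per the labels replicate numbers are shared between groups, but same-numbered libraries deviated together (correlation over 0.1) in only 3 of 16 pairs, so that the numbers were not taken to pair the animals.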

Additional observations from a re-analysis of the deposited data

Results flagged for a closer look

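In the 12 members that passed in a comparison of sGC with control, 72 groups of animals were checked for a library far from the others, and 9 groups held one. By chance about 1 group in 20 would be flagged, but all 12 members share the same animals, so the groups are not independent. Of the far values, 5 belonged to F2 sGC replicate 6 (library 33) and F3 sGC replicate 6 (library 34) in the KMT2 genes. Library 33 was far above the rest of its group for KMT2C, at 182.5 CPM against 129.6 to 149.3 CPM, and for KMT2D, at 239.1 CPM against 166.2 to 190.5 CPM. Library 34 was far above for KMT2A, at 112 CPM against 68.7 to 83.7 CPM, for KMT2C, at 157 CPM against 86.9 to 108.7 CPM, and for KMT2D, at 217.8 CPM against 141.1 to 163.8 CPM. INO80D in library 33 stood at 10.61 CPM against 6.85 to 8.11 CPM in the other F2 sGC animals.

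The other far values were a high CHD3 level of 641.2 CPM in F1 control replicate 6, a high SETD7 level of 627 CPM in F2 sGC replicate 4 and a low HDAC5 level of 142.97 CPM in F3 control replicate 4. Over all members, none had every sGC animal above the control mean in 1 generation and every one below it in another.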

How the results depend on the processing

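The count of members past the threshold in F1 was 12 with the likelihood ratio test and 12 with DESeq2 (11 higher and 1 lower in each), where 5.26% and 5.78% of all genes passed, 11 with all 3 generations fitted together, where 6.54% did (ASXL2 and KAT6A, but neither KMT2A nor KMT2C, among them) and 1 without libraries 32 to 36. Leaving out 1 library gave 1 to 5. In F3 the count was 2 with the likelihood ratio test (4.08% of all genes), 3 with DESeq2 (6.29%), 3 with F3 sGC replicate 5, which was added after the data were seen, and 0 with a replicate block, and 0 to 1 without 1 library. With all generations fitted together (1.25% of all genes) it was 1, SMARCA5 in place of CHD3. HDAC5 passed with both other tools, SMARCA5 with DESeq2. For the mean effect it was 0 without libraries 32 to 36, 21 from F1 and F3 alone, also added later, where 13.7% of all genes passed, and 4 to 13 without 1 library. Without F1 control replicate 1 or 5, F1 sGC replicate 5, F2 control replicate 3 or 4, F2 sGC replicate 6, F3 control replicate 4 or 6, or F3 sGC replicate 6, it was 5 to 7. For controls across generations it was 0 with F1 and F3 alone and 53 to 63 without 1 library. A replicate block left 3 members in F1 (without ASXL2), 9 in the mean effect and 56 among controls. The shares of all genes called with a block or without 1 library are not reported here. Those counts therefore cannot be read as particular to the members. DESeq2 size factors and no filter on low counts moved no count by over 1.5 times. No value that had passed changed sign under any of these settings. F2 and the difference among generations stayed at 0 members in all of them. Without libraries 32 to 36, however, 369 genes differed among generations, where the joint fits tested 11418 genes. The cause of these shifts was not tested.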
